A study of Mus musculus with 20 samples.

Results

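The Rab GTPases of vesicle traffic were examined in 20 single podocytes, the epithelial cells whose foot processes cover the capillaries of the kidney filter. Members were the rows of the expression table whose gene symbol is Rab followed by a number and, where present, a letter, read without regard to capitals. Of 59 such rows, Rab3a, Rab3b and Rab3d were left out, which gave 56 members among 39179 genes. All cells came from 1 wild-type male C57BL/6 mouse (spelled C56BL/6 in the sample labels), aged 8 weeks, and carried no treatment. Magnetic beads served to isolate glomeruli, which were then dissociated enzymatically, and cells were separated, lysed and turned into cDNA in single wells of a Fluidigm C1 instrument. The 20 cells form 1 group from 1 animal, so no comparison between groups was possible and no p-value is given. Every SD below is the spread between cells of this mouse, and cells are named by their replicate number.

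Rab proteins are small GTPases of the Ras superfamily that mark membrane compartments. In the GTP-bound form a Rab sits on a membrane through lipid groups at its C-terminal end and recruits effectors that tether, move or fuse vesicles, and chaperones return the GDP-bound form to the cytosol. Exchange factors load GTP and TBC-domain proteins speed its hydrolysis. In podocytes this traffic carries nephrin and other foot process proteins to and from the cell surface, and endocytosed cargo to lysosomes.

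The values are RPKM, that is, read counts scaled to gene length in kilobases and to 1000000 reads of the library. Whole reads could be recovered from them, and a library held 4205562 to 10448491 reads assigned to genes. A value of at least 1 RPKM is taken as found, and a cell held 2371 to 4977 such genes. For the podocyte label, 17 to 20 of 20 fixed podocyte markers were found in each cell, and Nphs1, Wt1, Podxl and Synpo were found in all. In 6 libraries markers of other glomerular cells were also high. Cells 5, 6, 10, 11 and 14 held 7 to 11 of 14 mesangial and mural markers, at a summed 2140 to 5833 RPKM, and Acta2, Tagln and Ren1 were found in none of them. In the 14 cells without such markers, at most 1 of the 14 was found, at a summed 0.210 to 84.7 RPKM. Cell 8 held 11 of 16 endothelial markers, at a summed 4376 RPKM, with Egfl7 and Erg below 1 RPKM. Those 14 cells held 1 to 4 of the 16, at a summed 76.5 to 2655 RPKM. Plat, on this endothelial list, was found in all 20 cells, at up to 2407 RPKM. Its part in the endothelial sums was not separated. The 5 cells with mesangial markers held 4 to 8, at a summed 482 to 1338 RPKM. None of 6 proximal tubule markers was found in any cell, and of 6 immune markers Fcer1g was found, in cell 5. A median level of a member over all cells that moved by over 1.5 times without these 6 cells is given both ways.

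None of the 56 members was found in all 20 cells, and they ran from genes found in 18 cells to genes without a read. Of the 56 members, 14 (25.0%) were found in at least 10 cells, against 6.43% of all 39179 genes and 2340 of the 21303 protein-coding genes. A further 23 members were found in 1 to 9 cells, against a background of 23.6% of all genes and 35.4% of protein-coding genes. The 19 members found in no cell make up 33.9%, against 70.0% of all genes and 53.6% of protein-coding genes. Found in every cell were 0 members, beside 0.664% of all genes and 1.11% of protein-coding genes. The median over members of their median level was 0 RPKM, as it was over all genes and over protein-coding genes. Among the 14 members found in at least 10 cells it was 6.52 RPKM, against 12.4 RPKM over the 2520 genes found that widely. Rab3b, a synaptic vesicle Rab that was left out of the members, was found in every cell, with 172 RPKM as its lowest value.

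**Figure D1:**
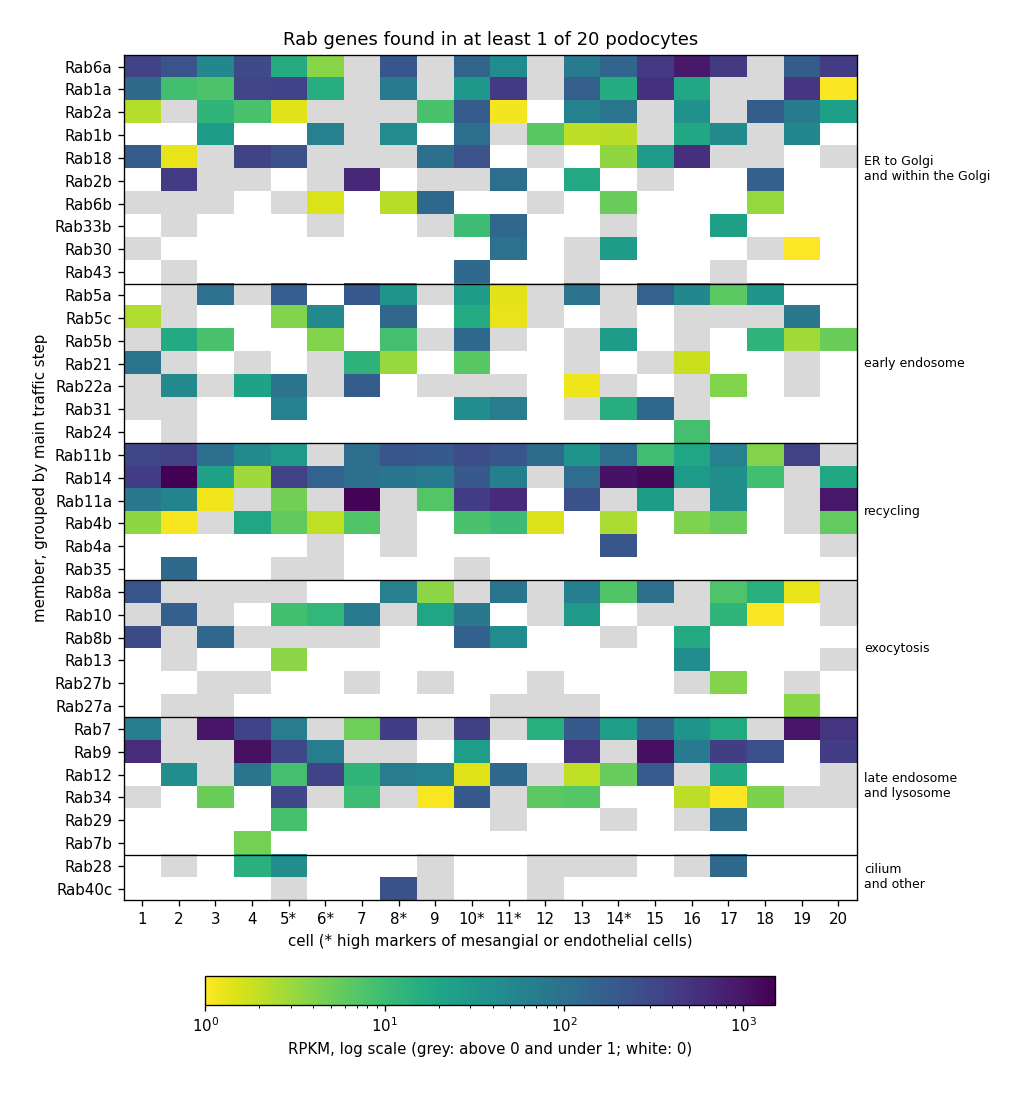
RPKM of the 37 members found in at least 1 cell (rows, grouped by main traffic step and ordered by median within each) in the 20 cells (columns). Coloured fields are at 1 RPKM or more on a log colour scale, grey fields lie above 0 and under 1, and white fields are 0; no row is coloured throughout, and Rab11b and Rab14 have the most coloured fields, 18 each.

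Levels in single cells tended to be either high or close to nothing, among members as among all genes. Of the 1120 member values, 670 were 0, 179 lay above 0 and under 1 RPKM, 78 lay between 1 and 10 RPKM, and 193 were at 10 RPKM or more. Of the member values at 1 RPKM or more, 71.2% were thus at 10 RPKM or more, against 65.7% over all genes and 69.0% over protein-coding genes. Zeros made up 59.8% of member values, less than the 84.2% over all genes and the 74.8% over protein-coding genes. Values above 0 and under 1 RPKM made up 15.98%, more than the 7.06% over all genes and the 10.7% over protein-coding genes. The values under 1 RPKM rested on a median of 2 reads, and those at 10 RPKM or more on a median of 1299 reads. Loss of a transcript at capture or amplification and absence of the transcript cannot be told apart in these libraries. Amplified reads are not independent molecules, so read counts and the limits below cover counting error only.

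The start regions of the widely found members were rich in CG dinucleotides, and those of the members found in no cell mostly were not. RefSeq promoter windows (build GRCm38.p6, 250 bases before to 50 after the transcript start) were matched for 45 of the 56 members by symbol, and where a gene has several windows their median was taken. The letters CG, which read the same on both strands, were counted in each window. The 13 matched members found in at least 10 cells had a median of 27 CG (9 to 37), the 18 found in 1 to 9 cells 24.5 (12 to 43), and the 14 found in no cell 10 (5 to 32.5). Over 27025 genes with a window the median was 7, and 94.6% of all windows held at least 1 CG. At least 20 CG were present for 9 of the 13, 11 of the 18 and 2 of the 14, against 26.3% of all genes. All genes were not split by the number of cells, so whether the contrast is particular to Rab genes was not tested. Windows of 1 gene can differ: Rab15, found in no cell, had 3 to 38 CG over 4 windows, with a median of 6. Among the exceptions were Rab11b and Rab9, found in 18 and 11 cells with 12 and 9 CG, and Rab23 and Rab39, found in no cell with 32.5 and 27 CG. A pair of 250-base stretches before the RefSeq start is printed below as an illustration. The first is that of Rab6a, the member with the highest median level (chr7:100607336-100607585, plus strand, 24 CG). The second is that of Rab17, the matched member without any read that has the fewest CG (chr1:90967668-90967917, minus strand, 3 CG). Rab17 was chosen by its CG count, so the pair is no support for the contrast between groups. GENCODE places the outermost start of both genes differently, at 100607410 for Rab6a and 90969661 for Rab17, so part of the first stretch and all of the second lie within the GENCODE gene. Capitals mark each CG, and the count is a description of these letters only.
Rab6a: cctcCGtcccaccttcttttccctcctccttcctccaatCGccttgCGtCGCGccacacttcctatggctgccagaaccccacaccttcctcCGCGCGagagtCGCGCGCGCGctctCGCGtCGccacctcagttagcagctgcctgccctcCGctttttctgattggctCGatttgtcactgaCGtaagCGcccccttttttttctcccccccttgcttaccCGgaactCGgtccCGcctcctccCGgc
Rab17: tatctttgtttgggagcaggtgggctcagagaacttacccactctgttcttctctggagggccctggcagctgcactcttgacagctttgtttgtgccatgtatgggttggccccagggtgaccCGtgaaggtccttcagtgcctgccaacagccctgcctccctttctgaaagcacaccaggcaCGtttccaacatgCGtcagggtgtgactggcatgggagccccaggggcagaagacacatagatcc

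**Figure D2:**
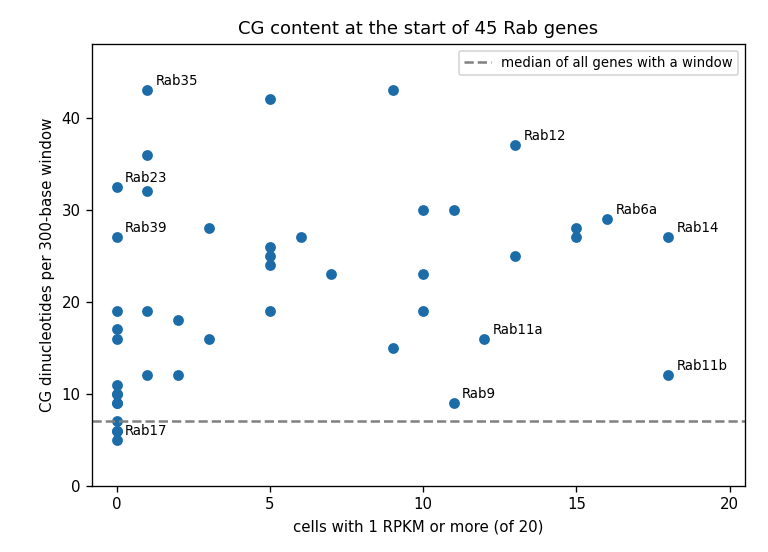
CG dinucleotides per 300-base RefSeq window (vertical axis, median over a gene's windows) against the number of cells in which the gene was found at 1 RPKM or more (horizontal axis) for 45 members; the dashed line is the median of all genes, 7. Members found in at least 10 cells lie mostly above 20, and those found in no cell mostly at 19 or below.

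The Golgi class held 12 members, which act between the endoplasmic reticulum and the Golgi or within the Golgi. Of these, 4 were found in at least 10 cells, 6 in 1 to 9 cells and 2 in none. Protein-coding genes had 2340 of 21303 in at least 10 cells and 53.6% in none. Whether the Golgi class differs from that background was not tested. Rab6a, which serves transport from and back to the Golgi, had the highest median of all members. It ranged from 0.0621 RPKM (1 read) in cell 7 through a median of 142 RPKM to 905 RPKM (19951 reads) in cell 16, with a mean of 195 ± 227 RPKM (SD, n = 20 cells). It lay under 1 RPKM in cells 7, 9, 12 and 18 and at 3.72 RPKM or more in the other 16. The gene lies on chromosome 7 (100607410 to 100641268, build GRCm38, plus strand), and 22.1% of its longest transcript overlaps Mrpl48 on the other strand. Rab1a, needed for transport from the endoplasmic reticulum to the Golgi, was found in 15 cells, from 0.0807 RPKM in cell 7 through a median of 17.8 RPKM to 528 RPKM in cell 15, with a mean of 128 ± 182 RPKM (SD, n = 20 cells). Without the 6 cells with other markers, in all of which it was found, its median was 8.43 RPKM. Rab2a, of the early Golgi, was found in 13 cells, from 0 in cell 12 through a median of 5.16 RPKM to 179 RPKM in cell 10, and its median was 8.10 RPKM without the 6 cells and 8.05 RPKM without cell 12. Rab18, known from the endoplasmic reticulum and lipid droplets, was found in 9 cells, where its median was 171 RPKM, and reached 564 RPKM (11804 reads) in cell 16, the cell in which Rab6a was also highest. Of the others, Rab33b and Rab30 were found in 3 cells each, Rab43 in cell 10 alone at 124 RPKM, with 90.5% of its longest transcript shared with the overlapping gene Gm45140, and Rab19 and Rab33a in none.

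In the recycling class, 4 of 9 members were found in at least 10 cells, 2 in a single cell and 3 in none. The background was 2340 of 21303 protein-coding genes in at least 10 cells and 53.6% in none. Whether the recycling class differs from that background was not tested. Rab11b and Rab14 were the most widely found of the 56 members, with 18 cells each. Rab11b, of the recycling endosome, ranged from 0.367 RPKM (5 reads) in cell 20 through a median of 105 RPKM to 355 RPKM in cell 19, with a mean of 127 ± 121 RPKM (SD, n = 20 cells). Of its longest transcript, 15.98% has near-identical stretches in other annotated genes, among them the pseudogene Rab11b-ps2, and its median was 34.9 RPKM with that transcript as gene length. Its coefficient of variation, 0.951, was the lowest among the 14 members found in at least 10 cells. These ran up to 2.93 for Rab34, with a median of 1.53, against 1.47 over the 2520 genes found that widely. Rab14, which acts between the Golgi and endosomes, lay at 0.0944 RPKM (1 read) in cell 12, at a median of 81.1 RPKM and at 1479.6 RPKM (11385 reads) in cell 2, the highest value of any member. Cells 15 and 14 followed, at 1277 and 1064 RPKM, and no other cell exceeded 399 RPKM. Without the 6 cells with other markers the median of Rab14 was 33.7 RPKM. Rab11a was found in 12 cells, from 0 in cells 12 and 18 through a median of 5.94 RPKM to 1398 RPKM (7175 reads) in cell 7, with 937.5 RPKM in cell 20 and 607 RPKM in cell 11. Its median was 17.4 RPKM without the 6 cells. Rab4b, of rapid recycling, was found in 13 cells at low levels, at most 19.9 RPKM (94 reads), with a median of 2.30 RPKM, and of 1.29 RPKM without the 6 cells. Of its longest transcript, 93.3% is shared with the overlapping annotated gene Gm21983 on the same strand, so its level is uncertain. Rab35 was found in cell 2 alone, at 119 RPKM (1315 reads), and Rab15, Rab17 and Rab25, the last an epithelial relative of Rab11, had no read in any cell.

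**Figure D3:**
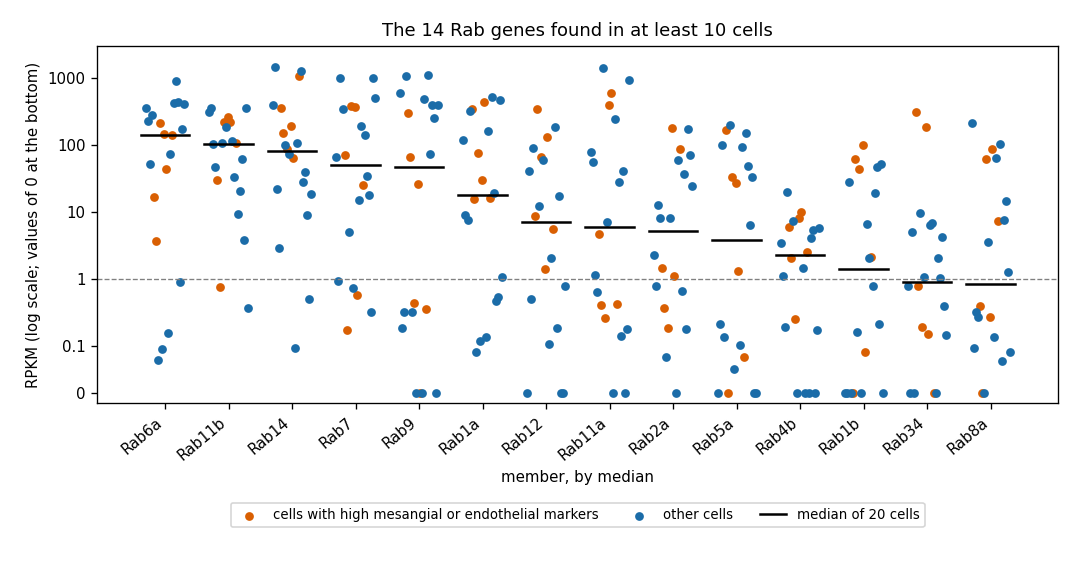
RPKM in each of the 20 cells (points, log axis, values of 0 at the bottom) for the 14 members found in at least 10 cells, in order of their median (bar); orange points are the 6 cells with high mesangial or endothelial markers. Points of nearly every gene spread from below 1 RPKM (dashed line) to above 100 RPKM; Rab4b stays at 19.9 RPKM or less.

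Late endosome and lysosome genes were led by Rab7 and Rab9. Of 10 members, 4 were found in at least 10 cells, 2 in 1 or 2 cells and 4 in none. Over protein-coding genes, 2340 of 21303 were found in at least 10 cells and 53.6% in none. Whether the late endosome and lysosome class differs from that background was not tested. Rab7, which brings late endosomes to lysosomes, was found in 15 cells, from 0.173 RPKM (2 reads) in cell 6 through a median of 50.1 RPKM to 997 RPKM in cell 3 and 988 RPKM in cell 19, with a mean of 207 ± 310.4 RPKM (SD, n = 20 cells). Of its longest transcript, 28.8% has a near-identical stretch in the pseudogene Rab7-ps1. Rab9, which returns receptors from late endosomes to the Golgi, was found in 11 cells, where its median was 391 RPKM, the highest such median among members found in 5 or more cells. Its highest values were 1101 and 1077 RPKM in cells 15 and 4, and it held at most 4 reads in each of the 9 cells where it was not found. Its median over all cells was 46.4 RPKM, and 162 RPKM without the 6 cells with other markers. Rab12, which directs receptors to lysosomes, was found in 13 cells, with a median over all cells of 7.11 RPKM, and reached 348 RPKM in cell 6. It was found in all 6 cells with other markers and in 7 of the other 14, and its median in those 14 was 1.41 RPKM. The 6 cells held a median of 3940 genes against 3033.5 in the 14, and the part of this was not tested. Rab34, which acts in lysosome positioning and cilium formation, was found in 10 cells, with 314 and 188 RPKM in cells 5 and 10 and no more than 9.59 RPKM elsewhere. Both of these cells hold mesangial markers, and each also holds 8 of the 16 endothelial markers. In cells 6, 11 and 14, which hold mesangial markers too, Rab34 was at 0.775, 0.150 and 0 RPKM. These cells hold 4, 4 and 6 endothelial markers. The part of the mesangial or endothelial markers in this was not tested. Rab29 was found in cells 5 and 17, Rab7b in cell 4 at 4.67 RPKM, and Rab9b, Rab32, Rab36 and Rab38 in none.

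Of the 8 early endosome members, 1 was found in at least 10 cells, 6 in 1 to 9 and 1, Rab20, in none. For protein-coding genes, 2340 of 21303 were found in at least 10 cells and 53.6% in none. Whether the early endosome class differs from that background was not tested. Rab5a, which drives fusion of early endosomes, was found in 11 cells, from 0 in cells 1, 6, 19 and 20 through a median of 3.86 RPKM to 201 RPKM in cell 7. Without cell 12 its median was 6.38 RPKM. Its copies Rab5b and Rab5c were found in 9 and 7 cells, with medians of 0.305 and 0.489 RPKM and highest values of 124 RPKM in cell 10 and 127 RPKM in cell 8. Without the 6 cells with other markers these medians were 0.0417 and 0.104 RPKM. Rab5c was found in 5 of the 6 cells with other markers and in 2 of the other 14. These 6 cells held more genes of any kind, a median of 3940 against 3033.5. The part of this in the Rab5c counts was not tested. Rab31, which carries cargo between the trans-Golgi network and endosomes, was found in 5 cells, with 58.8, 41.3, 67.8 and 15.7 RPKM in cells 5, 10, 11 and 14 and 128 RPKM in cell 15. The first 4 of these hold mesangial markers and cell 15 holds none of the 14; in the remaining cells Rab31 had at most 3 reads. Rab22a was found in 6 cells, up to 174 RPKM in cell 7, and Rab21, which binds integrins, in 5, up to 87.0 RPKM in cell 1.

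Of the 9 exocytic members, 1 was found in at least 10 cells, 5 in 1 to 9 and 3, Rab3c, Rab26 and Rab37, in none. Among protein-coding genes, 2340 of 21303 were found in at least 10 cells and 53.6% in none. Whether the exocytic class differs from that background was not tested. Rab8a, of exocytosis and cilium growth, was found in 10 cells, from 0 in cells 6 and 7 through a median of 0.829 RPKM to 215 RPKM in cell 1. Without cell 12 its median was 1.26 RPKM. Rab10, which delivers vesicles to the plasma membrane, was found in 9 cells, where its median was 19.7 RPKM, up to 160.0 RPKM in cell 2. Rab8b was found in 5 cells, where its median was 126 RPKM, up to 276 RPKM (8372 reads) in cell 1, the cell in which Rab8a was also highest. Rab13, known from tight junctions, was found in cells 5 and 16. Rab27a and Rab27b, which release secretory granules and exosomes, were found in 1 cell each, at 3.70 RPKM in cell 19 and 3.93 RPKM in cell 17. The class of cilium and other Rab genes held 8 members, of which 2 were found, Rab28 in 3 cells and Rab40c in cell 8 alone at 245 RPKM. Rab23, an inhibitor of Hedgehog signalling, had 1 read in 1 cell.

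Of the 19 members found in no cell, 14 had no read at all and 5 had reads but stayed at or below 0.627 RPKM. The 14 were Rab9b, Rab15, Rab17, Rab19, Rab20, Rab25, Rab26, Rab32, Rab38, Rab39, Rab39b, Rab40b, Rab42 and Rab44. At their annotated mean transcript lengths, no read allows a level of up to 0.0721 to 0.945 RPKM, the value of 3 reads, depending on the gene and the library.

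For several groups of close copies, at least 1 copy was found in more cells than any single copy was. At least 1 gene of the Rab11 pair was found in 19 cells, with cell 6 the exception, while Rab11b was found in 18 and Rab11a in 12. Rab11a and Rab11b were both found in 11 cells, Rab11b alone in 7 and Rab11a alone in 1. Rab11b was higher in 14 cells and Rab11a in 6, while the mean was higher for Rab11a, at 190 ± 377 RPKM, than for Rab11b (SD, n = 20 cells). For Rab5, each gene was found in at most 11 cells, and any of the 3 in 17; all 3 were found together in 2 cells, and none in cells 4, 9 and 12. Rab1a or Rab1b was found in 17 cells and both in 8, with Rab1a higher in 14 cells and Rab1b in 6. Rab6a or Rab6b was found in 18 cells, and Rab6a was the higher in 18. Rab6b, known from neurons, exceeded it in cell 9, at 125 RPKM where Rab6a had 2 reads, and in cell 18, at 3.16 RPKM where Rab6a had 0.900 RPKM. Rab2a or Rab2b was found in 15 cells. Rab2b reached 671 and 426 RPKM in cells 7 and 2, where Rab2a was under 1 RPKM. Of the longest Rab2b transcript, 68.8% overlaps the gene Gm43766 on the other strand. Exons of Tox4, also on the other strand, overlap exons of Rab2b too. The sources used here do not state whether reads were counted by strand. Rab4a was found in cell 14 alone, at 212 RPKM, where Rab4b had 2.56 RPKM. Rab8a or Rab8b was found in 13 cells and both in 2. These counts are descriptions over cells of 1 mouse; how many cells would hold a copy by chance was not tested.

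**Figure D4:**
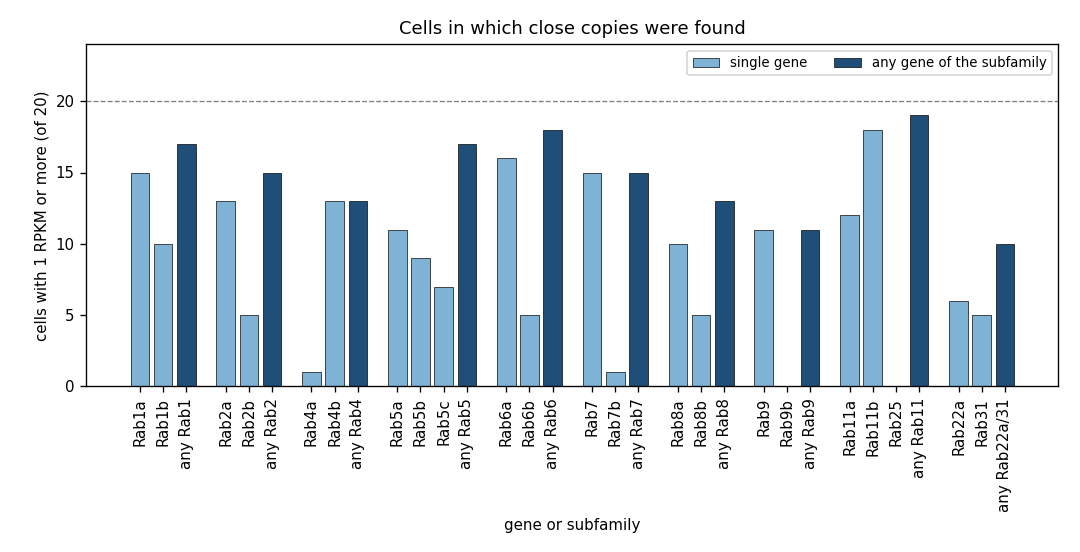
Number of cells, of 20, in which each gene of a subfamily of close copies (light bars) and any gene of that subfamily (dark bars) was found at 1 RPKM or more. The dark bar stands above every light bar for Rab1, Rab2, Rab5, Rab6, Rab8, Rab11 and the pair Rab22a and Rab31, and reaches 19 for Rab11 and 17 for Rab5.

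A cell held a median of 13 of the 56 members (SD 3.91 over 20 cells), with 5 in cell 12 as the fewest and 22 in cell 10 as the most. Cell 12 also had the fewest genes of any cell, and its 5 members were Rab11b at 115 RPKM, Rab7 at 15.1, Rab1b at 6.54, Rab34 at 6.30 and Rab4b at 1.46 RPKM. The number of members found went with the number of genes found in the cell, with Pearson's r of 0.83 and Spearman's rho of 0.83 over 20 cells. Without cells 10 and 11, which lie farthest from the median number of genes, these were 0.79 and 0.79. Both counts come from the same libraries. In the 14 cells without other markers they were 0.75 and 0.78. With the number of reads per library they were 0.17 and 0.13 over 20 cells. The 6 cells with other markers held 11 to 22 members (median 16) and a median of 3940 genes, against 5 to 18 members (median 12) and 3033.5 genes in the other 14 cells.

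**Figure D5:**
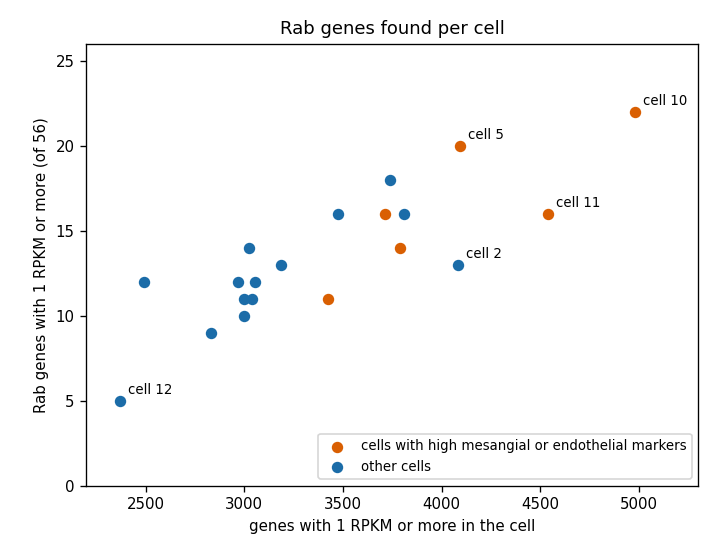
Number of members found at 1 RPKM or more (vertical axis, of 56) against the number of all genes found at 1 RPKM or more (horizontal axis) in each of 20 cells; orange points are the 6 cells with high mesangial or endothelial markers. Cell 12 is lowest on both axes, at 5 members and 2371 genes, and cell 10 highest, at 22 and 4977.

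The summed level of the family varied more than its count. The sum lay between 146 RPKM (cell 12) and 4104 RPKM (cell 15), with a median of 1936 RPKM, or 0.0269% to 0.681% of all RPKM in a cell. A single member supplied 14.5% (cell 10) to 78.7% (cell 12) of this sum, with a median of 39.2%. The leading member differed from cell to cell: Rab11a, Rab14 and Rab9 each led in 4 cells, Rab7 in 3, Rab6a and Rab11b in 2 each, and Rab12 in 1. By class, the summed level had a median of 556 RPKM for the Golgi class, 489 RPKM for late endosome and lysosome, 371 RPKM for recycling, 68.8 RPKM for early endosome and 41.6 RPKM for exocytosis. At least 1 member was found in each of the 20 cells for the first 3 classes, in 18 cells for the early endosome class and in 17 for the exocytic class. The means over cells of the first 3 were 555, 527 and 611 RPKM, so by the mean recycling was highest. Their SDs over cells, at 370.4, 462 and 589 RPKM, exceed the differences between their medians. By the median, late endosome and lysosome came above the Golgi class without the 6 cells with other markers, at 593 and 579 RPKM. The same held with the longest transcript as gene length, at 355 and 322 RPKM, where recycling had 113 RPKM. Over the 91 pairs of the 14 members found in at least 10 cells, the median Spearman correlation across cells was 0.069, against 0.017 for all genes found that widely. It ran from -0.58 for Rab11b with Rab9 to 0.54 for Rab6a with Rab9. The central 95% of pairs of all such genes ran from -0.44 to 0.47. The named pairs are the extremes of 91, and some of that many pairs can lie outside a central 95%. Whether they stand apart from pairs of other genes was not tested.

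The genes that control Rab proteins were, like the members, found in some cells and not in others. A list of 144 such genes was all measured, and 0 were found in every cell, 21 (14.6%) in at least 10 cells and 32 in none. Of all genes, 6.43% were found in at least 10 cells and 70.0% in none, and of protein-coding genes 2340 of 21303 and 53.6%. Exchange factors had 10 of 41 in at least 10 cells (24.4%), GTPase-activating proteins 2 of 34 (5.88%), effectors 6 of 61 (9.84%), and chaperone and prenylation genes 3 of 8. Rabac1, a membrane protein that binds prenylated Rab proteins, had the highest median, 55.2 RPKM, and was found in 19 cells. Gdi2, a chaperone that extracts Rab proteins from membranes, had a median of 46.0 RPKM and was found in 13 cells. Among exchange factors, Trappc4, a subunit of the complex that activates Rab1, had a median of 53.5 RPKM, and Rabgef1 and Rin2, which activate Rab5, had 47.4 and 9.05 RPKM; each was found in 13 cells. Dennd5b had a median of 41.5 RPKM and was found in 16 cells, and Ric1, part of the exchange factor of Rab6, in 14 at 28.9 RPKM. Among effectors, Optn, which binds Rab8, had 52.2 RPKM in 14 cells, and Golgb1, a Golgi tether, 9.06 RPKM in 15. Gapvd1, which acts on Rab5, and Tbc1d8b, which acts on Rab11, are known from human nephrotic syndrome. Gapvd1 was found in 10 cells and reached 83.4 RPKM, with a median of 0.990 RPKM. Tbc1d8b was found in 7 and reached 258 RPKM, with a median of 0.0662 RPKM.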

How the data were processed

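The authors deposited 1 table of RPKM values for 39179 Ensembl genes in 20 single cells. The submitters' processing notes name build GRCm38, HTSeq 0.6.1 and TopHat2 2.0.12, and the sources used here state no settings. The RPKM values were used as deposited, with 1 blank set to 0. Symbols and coordinates are from GENCODE M21, on GRCm38. Library totals were recovered as the commonest value of RPKM times length (1 read) among genes with a single annotated transcript, and a gene's length as the whole number of bases that gives whole reads, within 0.001 read, in every cell. This gave lengths for the 42 members with reads; for members with reads in few cells the length, and so the reads, may be a fraction of the true one. Recovery was tested on simulated data. Near-identical copies were stretches of at least 50 bases at 98% identity (BLAST 2.17.0). Python 3.11.15, numpy 2.4.6, pandas 2.3.3, scipy 1.17.1 and matplotlib 3.10.9 were used.

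Members, their classes and the lists of markers and regulators were chosen with earlier results of these data known. Named were the 15 members with the highest median, members of a subfamily of close copies, and those with a median of 50 RPKM or more over the cells where they were found, if these numbered 5 to 15; of the regulators, the 10 with the highest median, of which 1 is not reported here, Tbc1d8b and Gapvd1. Other members are named where they complete a class. Cells were set apart at 5 or more mesangial and mural or 9 or more endothelial markers. As alternatives, a gene was counted as found at any value over 0 or at 5 RPKM, cells were scaled to a common sum of 1000000, and further ones were leaving out those 6 cells or the cell with the fewest genes, the longest transcript as length, a filter at a mean of 1 RPKM, and the SD of log2(RPKM + 1) or log2(RPKM + 0.1). Doublets were not called.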

Additional observations from a re-analysis of the deposited data

How the results depend on the processing

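Of 181 recomputed values, 172 stayed within the spread between cells or within 1.5 times a count. For member medians this spread is too wide for the count to show that they are stable. The Rab9 median, with an SD over cells of 348 RPKM, counted as unmoved although it went from 46.4 to 162 RPKM without the 6 cells with other markers. With detection above 0 RPKM, 5 of 56 members and 2 of 144 regulators were found in every cell, where none was at 1 RPKM. Of all genes, 2.23% were above 0 in every cell. Members found in at least 10 cells went from 14 to 23, and regulators found in no cell from 32 to 16. A cell then held a median of 23 members. Values between 0 and 1 RPKM rest mostly on a few reads. With each cell rescaled to a sum of 1000000, the summed level of the Golgi class had a median of 966, as the scale differs. Without the 6 cells with markers of other types, Rab4a exceeded Rab4b in 0% of cells, because the single cell with Rab4a is one of them. Of the 5 members with the lowest coefficient of variation, 2 were shared with the 5 lowest by the SD of log2(RPKM + 1) and 2 with a pseudocount of 0.1; the cause was not tested. All 10 members with the highest medians were the same without those 6 cells. With the longest transcript as length, the medians of Rab14 and Rab11a were 21.2 and 1.93 RPKM. No paired analysis was possible because there is 1 group. Depth limits what a value of 0 means for short genes, and with 1 mouse no value carries over to other animals.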

Other observations

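Among the genes that control Rab proteins, the effectors Unc13d and Appl2 had a low level with a low coefficient of variation. Both were picked after their values were seen. Their levels still ran from 0.404 to 31.4 RPKM and from 0 to 22.0 RPKM over the cells, and an SD on a log scale is not given for them. Unc13d, which primes secretory vesicles for release together with Rab27 proteins, was found in 19 cells at a mean of 11.1 ± 8.66 RPKM (SD, n = 20 cells), with a coefficient of variation of 0.781. Appl2, an adaptor of early endosomes that binds Rab5, was found in 19 cells at a mean of 6.66 ± 5.49 RPKM, with a coefficient of variation of 0.825. Both coefficients lie below the 0.951 of Rab11b, the lowest among the members found in at least 10 cells.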
